A study of Mus musculus with 6 samples.

Results

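The 9 genes described here encode surface enzymes and receptors that handle extracellular ATP, adenosine and NAD on T cells, together with adenosine deaminase. They are Entpd1, Nt5e, Ada, Dpp4, Adora2a, P2rx4, P2rx7, Cd38 and Art2b, matched by symbol, and all 9 were found among the 52997 genes of the count table. They were chosen with their levels in these libraries known, so the differences between the ages among them are given as a description and not as a test. RNA was sequenced from CD4+ T cells of pooled lymph nodes of mice aged 10 days (infant, 3 mice) and 7 weeks (adult, 3 mice), all of the Foxp3-GFP strain on C57BL/6, in which a green reporter marks cells that express the regulatory T cell factor Foxp3. No treatment is named for either age. For each mouse, 1000 cells were sorted through 2 rounds and made into 1 library. The titles call the cells Tconv, the series calls them naive, and which markers defined the sort is not stated in the labels.

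ATP released by stressed or dying cells is broken down at the cell surface in steps: CD39 (Entpd1) removes phosphates from ATP and ADP, and CD73 (Nt5e) turns the resulting AMP into adenosine. Adenosine acts on lymphocytes mainly through the receptor encoded by Adora2a, which raises cAMP and dampens activation, and adenosine deaminase (Ada) ends the signal by making inosine. Extracellular NAD is consumed by CD38 and used by the mouse enzyme ART2 (Art2b) to attach ADP-ribose to surface proteins, among them the ATP-gated channel P2X7, which this modification can open. In mouse T cells an open P2X7 channel leads to shedding of surface proteins and, if sustained, to cell death.

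The libraries held 3421253 to 4887371 counts. The totals of the ages overlapped (two-sided p = 0.9 in an exact permutation test whose smallest possible p is 0.1). Adult replicate 2 stood apart. It had 36373 genes with a count, where the other 5 libraries had 17992 to 21840. Over 10982 autosomal coding genes that were not tested it held 1.85 counts per kb, and the others 0.186 to 0.349. Markers fixed for CD4 T cells were present at like levels, with a summed level of 8206 to 9459 CPM in adult and 8689.8 to 9266 in infant libraries over the 10 genes. CPM are counts per 1000000 counts of tested genes, with the total corrected by the library's TMM factor. In bulk RNA, fewer cells that express a gene and less RNA per cell cannot be told apart.

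Of the 9 genes, 8 passed the filter on low counts and Entpd1 did not. In the quasi-likelihood fit of edgeR over all 11681 tested genes, with an adjusted p of 0.05 as the limit, 2 of the 8 (P2rx7 and Dpp4) were called higher in infant cells, where 1.52% of all tested genes were, and 2 (Nt5e and Art2b) were called lower, where 2.11% were. The 3 infant values lay wholly above the adult values in 3 of the 8 genes, as in 11.2% of all tested genes, and wholly below in 2, as in 11.6%. Because the genes were chosen on this comparison, nothing is read from these counts.

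**Figure D1:**
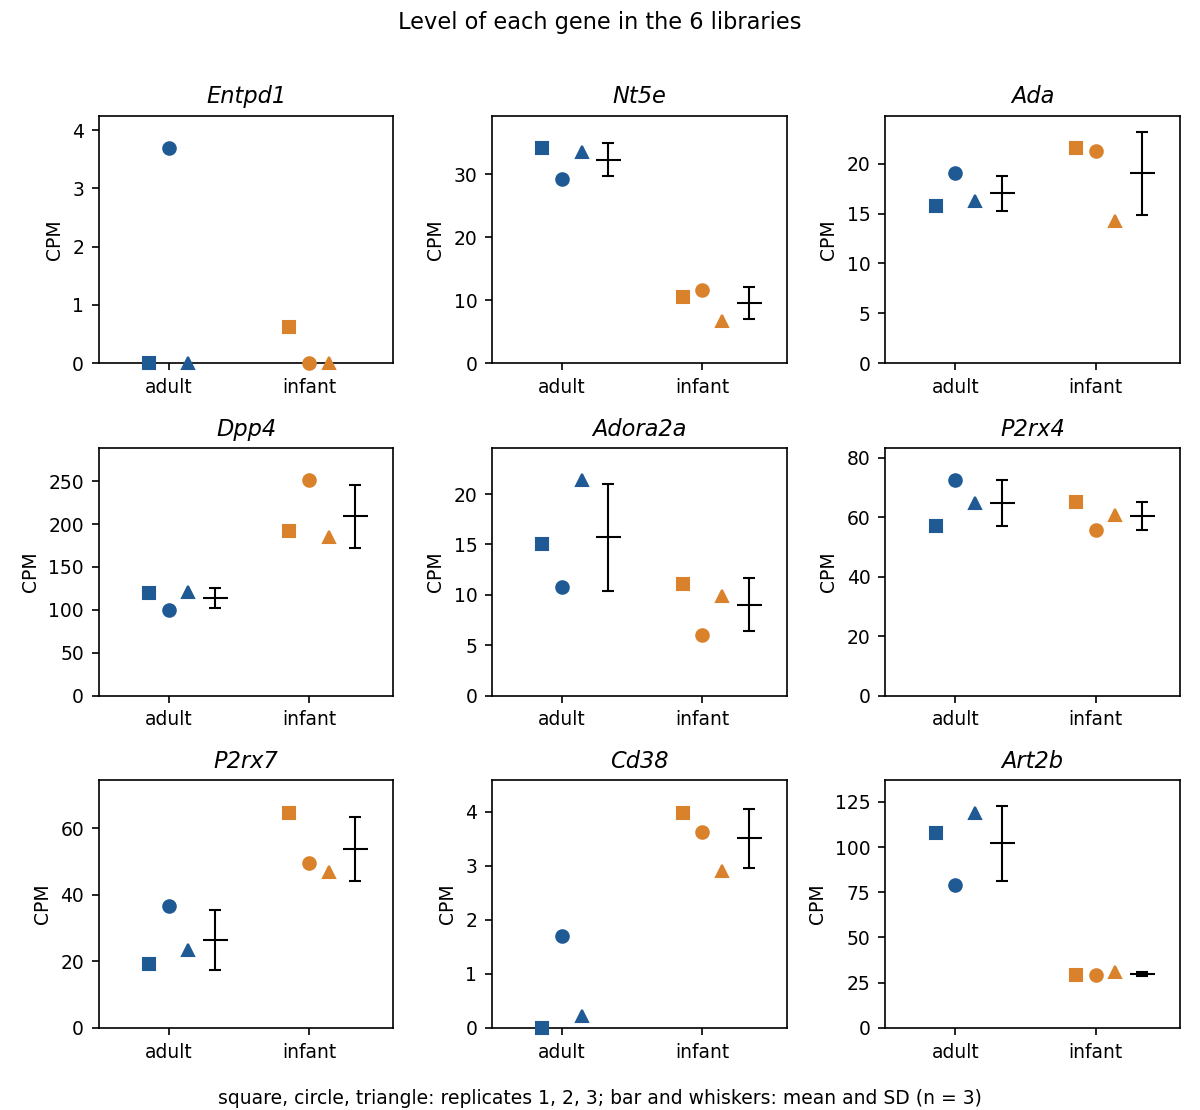
Level of each of the 9 genes in CPM (vertical axes, each starting at 0) in the 3 adult (blue) and 3 infant (orange) libraries, with the mean and SD where no library is at 0. Nt5e and Art2b lie lower and Dpp4, P2rx7 and Cd38 higher in every infant library than in any adult library, whereas P2rx4, Ada and Adora2a overlap.

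Entpd1, which encodes the first enzyme of the adenosine chain, was hardly detected. It had 0, 13 and 0 counts in adult replicates 1, 2 and 3 and 3, 0 and 0 in the infant ones. A floor of 3 counts corresponds to 0.628 to 0.852 CPM in the single libraries. The 13 counts lay close to the 10.3 that the density of counts over untested genes in adult replicate 2 would place on its 5580 bases of exon. No fold change is given for it, since at most 1 library of each age held any count.

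Nt5e was detected in every library and was lower in infant cells. It lies on chromosome 9 (88327197 to 88372092, plus strand, GRCm38). Adult replicates 1, 2 and 3 held 34.2, 29.3 and 33.5 CPM of Nt5e, and the infant replicates 10.5, 11.6 and 6.76. The groups were far apart, with the lowest adult value above all infant values. The means were 32.3 ± 2.67 (SD, n = 3) and 9.61 ± 2.53 CPM, and the fitted infant level was 3.35-fold lower (log2 fold change −1.75 ± 0.25, SE). The log2 fold change stayed between −1.90 and −1.55 when any 1 library was left out. As background, CD73 is known to increase on T cells as they mature after leaving the thymus.

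The promoter window of Nt5e is shown because the gene separated the ages by more than 3-fold. In this and the other windows, taken from RefSeq (GRCm38.p6, 250 bases before to 50 after the annotated start, read on the gene's strand), capitals mark matches on either strand to the motifs described further on.
Nt5e, chr9:88327359-88327658, plus strand: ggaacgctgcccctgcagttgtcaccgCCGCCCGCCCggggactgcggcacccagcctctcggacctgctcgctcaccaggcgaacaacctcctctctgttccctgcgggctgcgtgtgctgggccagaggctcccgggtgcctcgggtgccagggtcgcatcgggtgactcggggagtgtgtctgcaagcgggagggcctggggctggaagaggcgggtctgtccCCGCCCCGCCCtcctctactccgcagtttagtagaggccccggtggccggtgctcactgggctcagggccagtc
The window was rich in G and C (71.0%, against a median of 52.7% over 32851 windows of the same length) and held 23 CpG dinucleotides (median 7) and 4 matches to the GC box, some of which overlap one another.

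Ada, the enzyme that removes adenosine, had overlapping levels at the ages. It lies on chromosome 2 (163726584 to 163750239, minus strand). The adult libraries held 15.8, 19.0 and 16.2 CPM of Ada and the infant libraries 21.6, 21.3 and 14.2. Infant replicate 3 was the lowest of all 6 libraries and infant replicates 1 and 2 the highest, so that the infant group spread around the adult one. The log2 fold change was 0.17 ± 0.25.

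Dpp4 encodes CD26, a surface peptidase that clips dipeptides from the ends of chemokines and other peptides and in humans also binds adenosine deaminase. It was higher in infant cells. The gene lies on chromosome 2 (62330073 to 62412231, minus strand). Levels of Dpp4 were 119.5, 100.3 and 121 CPM in the adults against 192, 251 and 185 CPM in the infants, and the lowest infant value was above the highest adult value. Means were 114 ± 11.6 and 209 ± 36.5 CPM, a 1.84-fold higher level (log2 fold change 0.88 ± 0.14, and 0.73 to 0.96 without any 1 library). The antisense gene Gm13561 shares 232 bases of exon with Dpp4, and the library protocol marks no strand, but Gm13561 held at most 18 counts in any library against at least 353 of Dpp4.

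The window of Dpp4 is printed as that of the most abundant of the genes that were higher in infant cells.
Dpp4, chr2:62412182-62412481, minus strand: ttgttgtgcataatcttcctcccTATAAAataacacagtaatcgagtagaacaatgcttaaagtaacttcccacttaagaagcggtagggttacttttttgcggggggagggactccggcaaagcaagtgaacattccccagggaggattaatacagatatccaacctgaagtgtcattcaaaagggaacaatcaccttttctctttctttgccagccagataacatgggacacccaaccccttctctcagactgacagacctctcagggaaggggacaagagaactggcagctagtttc
It had 45.3% G and C, 4 CpG dinucleotides and 1 match to the TATA word, at position −227 from the annotated start, and none to the GC box.

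Adora2a, the adenosine receptor gene on chromosome 10 (75316877 to 75334784, plus strand), had lower values in infant libraries that overlapped with the adult ones. The adult levels were 15.03, 10.8 and 21.4 CPM and the infant levels 11.1, 6.05 and 9.90. Adult replicate 2 lay just below infant replicate 1, and the other adult libraries lay above all infant ones. The means of 15.7 ± 5.32 and 9.02 ± 2.64 CPM gave a log2 fold change of −0.81 ± 0.34, which ranged from −1.01 to −0.52 without any 1 library. It was not called in any of these fits.

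The ATP-gated channel genes P2rx7 and P2rx4 lie next to each other on the plus strand of chromosome 5, 16.1 kb apart (122643911 to 122691432 and 122707544 to 122729738). They differed in how they compared between the ages. For P2rx7, the adult libraries held 19.2, 36.7 and 23.5 CPM and the infant libraries 64.7, 49.6 and 46.9. All infant values were above all adult values, and adult replicate 2 was the adult library nearest to them. The density of counts over untested genes would place 11.1 of its 129 P2rx7 counts there. Means were 26.4 ± 9.11 and 53.7 ± 9.61 CPM (log2 fold change 1.03 ± 0.23, 2.05-fold). P2rx7 was no longer called when adult replicate 1 or 3 or any 1 infant replicate was left out (log2 fold change 0.85 to 1.12). Leaving out adult replicate 2 kept the call, with a log2 fold change of 1.33.

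P2rx4, the channel gene downstream, held 57.0, 72.4 and 64.9 CPM in the adults against 65.1, 55.6 and 60.9 CPM in the infants. The groups overlapped fully, with adult replicate 2 highest and infant replicate 2 lowest. The log2 fold change was −0.10 ± 0.15 and lay between −0.18 and −0.01 without any 1 library. Within each library the count of P2rx7 per kb of exon was 0.396, 0.595 and 0.426 times that of P2rx4 in adults and 1.17, 1.05 and 0.906 times in infants, and these ratios did not overlap. Both counts of such a ratio come from 1 library, so the scaling between libraries does not enter it.

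RefSeq places starts of P2rx7 at a pair of sites, 122643927 and 122650383, the second inside the gene. Both windows are shown because mouse T cells are known to use a P2X7 variant with an alternative first exon, and counts per gene do not tell which start was used.
P2rx7 upstream start, chr5:122643677-122643976, plus strand: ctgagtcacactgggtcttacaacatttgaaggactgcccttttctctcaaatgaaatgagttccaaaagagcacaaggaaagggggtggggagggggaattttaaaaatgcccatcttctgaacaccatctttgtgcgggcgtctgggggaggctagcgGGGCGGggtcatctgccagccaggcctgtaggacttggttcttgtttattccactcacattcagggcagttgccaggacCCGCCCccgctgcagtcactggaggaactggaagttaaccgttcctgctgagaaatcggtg
P2rx7 downstream start, chr5:122650133-122650432, plus strand: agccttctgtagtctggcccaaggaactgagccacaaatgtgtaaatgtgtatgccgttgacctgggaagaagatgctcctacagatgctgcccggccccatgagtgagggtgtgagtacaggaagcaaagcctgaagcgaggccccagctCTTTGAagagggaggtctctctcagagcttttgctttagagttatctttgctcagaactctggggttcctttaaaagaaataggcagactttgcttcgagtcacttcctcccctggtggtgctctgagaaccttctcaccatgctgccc
The upstream window held 2 matches to the GC box and 8 CpG dinucleotides, and the downstream window 0 matches to the GC box, 4 CpG dinucleotides and 1 match to the TCF word.

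Cd38, the NAD-consuming enzyme, was near the detection limit in adults and low in infants. The gene lies on chromosome 5 (43868553 to 43912375, plus strand), 24.6 kb downstream of its relative Bst1. Cd38 had 0, 6 and 1 counts in the adults against 19, 15 and 12 counts in the infants, which is 0, 1.70 and 0.214 CPM against 3.98, 3.63 and 2.90. Every infant library held more than any adult library. The 6 counts of adult replicate 2 lay near the 7.21 that the density over untested genes would place on Cd38 in that library, and the infant counts lay well above the 0.995 to 1.36 so obtained for the infant libraries. The fitted log2 fold change was 2.51 ± 0.84 and not called with all libraries, and 4.64 ± 1.02 and called without adult replicate 2. Cd38 passed the filter only through its infant values, and the size of its change is not fixed by the 7 adult counts. Bst1, which encodes a related NAD-consuming enzyme, had 4 counts in all adult libraries and 0 in all infant ones.

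Cd38 is also expressed by B cells, plasma cells and myeloid cells. The 10 myeloid and dendritic markers summed to 12.6, 35.5 and 6.84 CPM in adult replicates 1, 2 and 3 and to 21.1, 20.8 and 16.7 in the infant ones, so that without adult replicate 2 every infant sum lay above the adult sums. Of this list Itgam, an integrin chain of myeloid cells, was at 4.70 to 7.76 CPM in the adults and 9.63 to 13.8 in the infants, and Cd68 at 1.07 to 3.13 and 2.66 to 5.65, while Lyz2 and Csf1r were at 0 to 0.628 in the infants. Sums of the 4 plasma cell markers, mostly Prdm1, were 11.3 to 22.7 CPM in the adults and 3.86 to 7.50 in the infants. The 8 B cell markers summed to 711 to 831 and 670.4 to 802 CPM, nearly all of it Ighm. Within that list Cd79a was at 6.25 to 6.79 CPM in the adults and 4.60 to 6.04 in the infants, and Ms4a1 at 0 to 3.13 and 0 to 0.242. The part of such cells in the level of Cd38 was not tested.

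Art2b, which encodes the ADP-ribosyltransferase that acts on P2X7, was lower in infant cells. It lies on chromosome 7 (101576970 to 101585600, minus strand). The adults held 108, 79.3 and 119 CPM of Art2b and the infants 29.1, 29.3 and 30.9. The 3 infant libraries were nearly alike (SD 1.00 around 29.8 CPM), whereas the adults varied (102 ± 20.5), and the lowest adult value was more than any infant value. The infant level was 3.43-fold lower (log2 fold change −1.78 ± 0.17, and −1.93 to −1.66 without any 1 library). The near-copy Art2a-ps lies 16.1 kb away on the same strand and is annotated as a polymorphic pseudogene. It had 1, 8 and 6 counts in adult and 0, 0 and 8 in infant libraries, against at least 121 of Art2b, and no source used here says how reads that match both copies were counted.

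The window of Art2b is shown beside that of Nt5e because both genes were lower in infant cells by a like amount, and both encode enzymes anchored in the membrane by a lipid.
Art2b, chr7:101581112-101581411, minus strand: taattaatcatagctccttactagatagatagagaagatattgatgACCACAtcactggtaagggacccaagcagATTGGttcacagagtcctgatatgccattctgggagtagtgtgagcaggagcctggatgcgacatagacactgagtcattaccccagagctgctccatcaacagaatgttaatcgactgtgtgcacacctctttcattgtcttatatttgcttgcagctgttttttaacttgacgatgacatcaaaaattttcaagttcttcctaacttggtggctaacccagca
Unlike that of Nt5e it was poor in G and C (42.3%), with 3 CpG dinucleotides, 1 match each to the CCAAT box and the RUNX word and none to the GC box. The start that RefSeq gives, 101581161, lies inside the gene as GENCODE draws it.

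RefSeq windows were found for 8 of the 9 genes, 10 windows in all. The motifs searched on both strands, with overlapping matches counted, were the GC box (GGGCGG, present in 35.7% of 32851 windows), the CCAAT box (CCAAT, 37.4%), the TATA word (TATAAA, 13.6%), the cAMP response element (TGACGTCA, 1.79%), the core of the hypoxia response element (ACGTG, 19.6%), a RUNX word (TGTGGT, 16.8%) and a TCF word (CTTTGA, 16.0%). None of the 10 windows held the cAMP or the hypoxia word, which says only that those letters are not in these 300 bases. No motif was found in the windows of both Nt5e and Art2b, nor in those of both Dpp4 and either start of P2rx7.

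**Figure D2:**
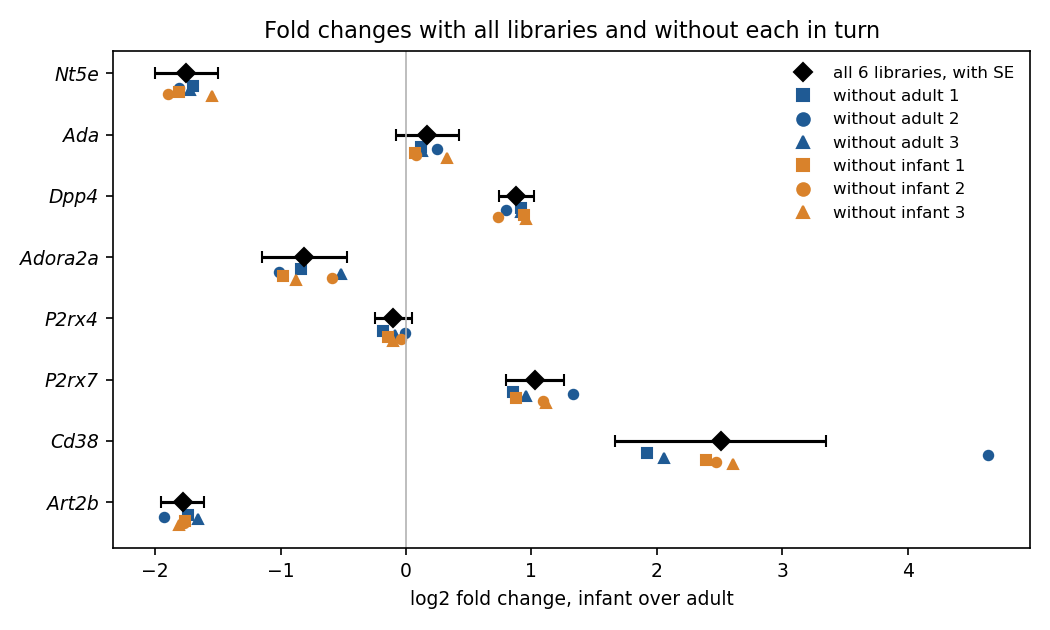
Log2 fold change, infant over adult, of the 8 tested genes with all 6 libraries (black diamonds, whiskers are SE) and without each library in turn (coloured symbols below each diamond). Nt5e and Art2b stay between −1.93 and −1.55 and Dpp4 between 0.73 and 0.96, whereas Cd38 goes from 2.51 to 4.64 without adult replicate 2.

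Set on a common scale of CPM per kb of exon, the order of the genes differed between the ages. In adults Art2b was highest (36.1 ± 7.24 CPM per kb), followed by Dpp4 (18.0 ± 1.84), and both were separated from each other and from the rest. P2rx4 (9.22 ± 1.10) and Ada (8.50 ± 0.884) overlapped, as did Adora2a (5.14 ± 1.74), P2rx7 (4.43 ± 1.53) and Nt5e (3.76 ± 0.311) below them, while Entpd1 and Cd38 lay at 0.662 or less in every adult library. In infants Dpp4 led with 33.1 ± 5.78 CPM per kb. The levels per kb of Art2b (10.5 ± 0.354), Ada (9.51 ± 2.07), P2rx7 (8.997 ± 1.61) and P2rx4 (8.62 ± 0.677) then followed, each overlapping with the next. Adora2a (2.94 ± 0.862) followed, Nt5e (1.12 ± 0.295) and Cd38 (0.900 ± 0.142) overlapped below it, and Entpd1 came last.

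Ratios of counts per kb within a library restate these levels without any scaling between libraries. Dpp4 and P2rx7 lay wholly above the adult values in infant cells and Art2b wholly below. That their ratios over Art2b separate the ages follows from this and is no further support. Dpp4 per kb was 0.497, 0.566 and 0.456 times Art2b per kb in adult libraries and 2.95, 3.84 and 2.67 times in infant ones. Art2b was thus the higher of the pair in every adult library and Dpp4 in every infant library. For the channel and the enzyme that modifies it, P2rx7 over Art2b was 0.0843, 0.219 and 0.0935 per kb in adults and 1.05, 0.803 and 0.718 in infants. The groups did not overlap, as the levels of these genes already fix, and in infants the levels per kb lay near each other. For the receptor of adenosine against the enzyme that makes it, Adora2a over Nt5e, the ratios per kb were 1.24, 1.04 and 1.79 in adults and 2.98, 1.46 and 4.11 in infants, and the groups overlapped.

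**Figure D3:**
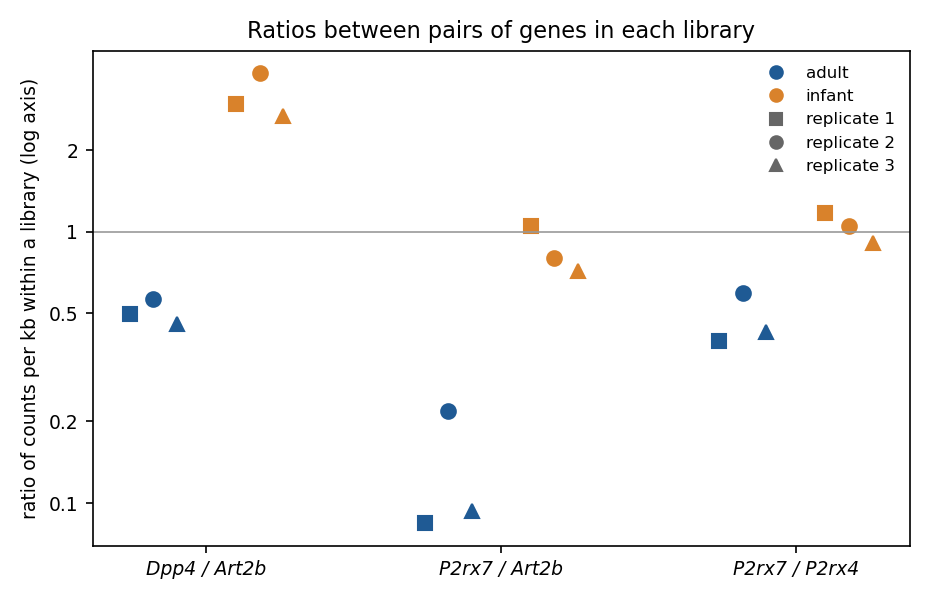
Ratio of the counts per kb of exon of 2 genes within each library (vertical log axis) for Dpp4 over Art2b, P2rx7 over Art2b and P2rx7 over P2rx4, in adult (blue) and infant (orange) libraries. In each pair the infant ratios lie above the adult ones, and Dpp4 over Art2b crosses 1, from at most 0.566 to at least 2.67. For the ratios over Art2b the separation follows from the levels of the single genes.

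Among 7080 tested genes with a mean of at least 20 CPM, the patterns most like those of Nt5e and Art2b were found by the root mean square difference of centred log2 CPM over the 6 libraries. For Nt5e these were Socs3, an inhibitor of cytokine signalling (0.135), Ly6a, which encodes Sca-1 (0.199), and Fam46a (0.207). Socs3 went from a mean of 115 to 33.7 CPM and had a log2 fold change of −1.77 ± 0.19, next to −1.75 for Nt5e. For Art2b they were Traf1, a signalling adaptor of TNF receptors (0.146), St3gal6, a sialyltransferase (0.182), and Fam46a (0.201). No such genes are given for Cd38, whose adult counts are near the floor. The likeness is over 6 libraries of 2 ages and is a description.

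The rest of the purine and NAD system was followed in 9 lists that hold 165 genes of the table besides the 9 described. Of these, 110 were tested, 3 rose and 7 fell in infant cells, and 100 did not pass (edgeR, adjusted p under 0.05), which is 9.09% called, beside 3.64% of all tested genes. Their median log2 fold change was 0.02, beside −0.002 over all tested genes. All 3 infant values lay above all adult values in 16 of the 110 and below in 17, beside 11.2% and 11.6% of all tested genes. The 10 calls depended on single libraries. Leaving out adult replicates 1, 2 or 3 gave 0, 7 or 3 calls, and leaving out infant replicates 1, 2 or 3 gave 1, 0 or 2. At an unadjusted edgeR p under 0.05 there were 29 genes with all libraries, and 20 and 18 in the fits with 0 calls, which lacked adult replicate 1 and infant replicate 2.

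**Figure D4:**
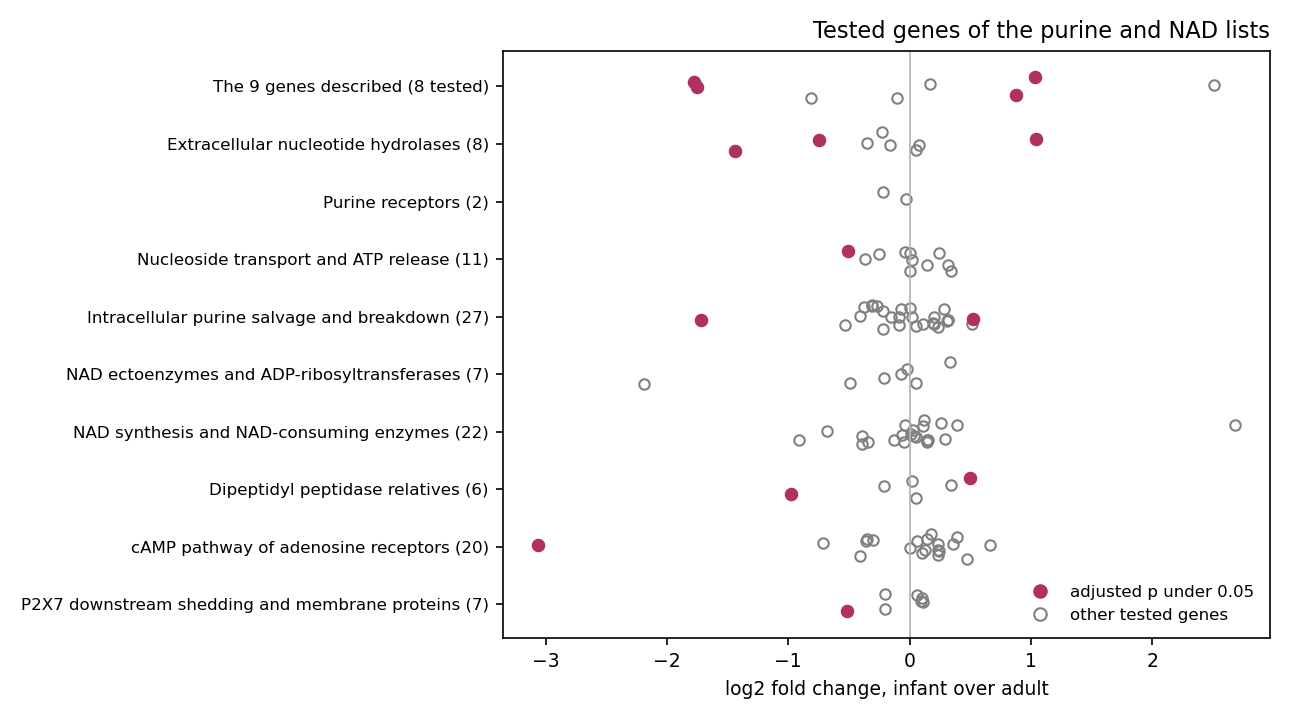
Log2 fold change, infant over adult, of each tested gene of the 9 purine and NAD lists (rows, number tested in brackets) and of the 8 tested genes described here (top row), with filled points where edgeR's adjusted p is under 0.05. In the 9 lists 3 filled points lie to the right of 0 and 7 to the left, and most genes lie near 0.

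Of other nucleotide-splitting surface enzymes and their relatives, some of them inside the cell, 1 of 8 tested rose and 2 fell (median −0.20). Acpp, whose transmembrane form also makes adenosine from AMP, went from 21.1, 27.6 and 20.3 CPM in the adults to 44.4, 58.8 and 38.2 CPM in the infants, a rise of 1.04 ± 0.21 on the log2 scale (edgeR adjusted p = 0.0144). It thus moved the other way from Nt5e. Enpp5 and Enpp4, nucleotide pyrophosphatase family genes, fell by 1.44 ± 0.31 and 0.75 ± 0.17 (adjusted p = 0.0201 and 0.0255). The call of Acpp was lost without adult replicate 1 or 3 or infant replicate 2, that of Enpp5 without any library but adult replicate 2 and that of Enpp4 without any single one (adjusted p at most 0.113, 0.109 and 0.138).

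Of the other purine receptors only P2ry10, a lymphocyte receptor gene named for its likeness to P2Y receptors, and P2ry14 were tested, and 0 were called (0 also at an unadjusted p under 0.05 and 0 with DESeq2 or limma-voom). P2ry10 was at 60.4 ± 3.96 CPM in adult and 51.7 ± 2.67 in infant cells (log2 fold change −0.22 ± 0.15, adjusted p = 0.489). The 15 untested receptors had at most 15 counts in any library other than adult replicate 2, so that Adora2a, P2rx4, P2rx7 and P2ry10 carried most reads of this family. The receptor genes Adora1, Adora2b and Adora3 held 15, 4 and 5 counts in adult replicate 2 and at most 3 elsewhere.

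Nucleoside carriers and ATP release channels had 1 of 11 tested genes called (median 0.00). It was Ano6, a calcium-activated lipid scramblase and channel that fell, with 164 ± 11.5 CPM in adult and 115 ± 6.09 in infant cells (log2 fold change −0.51 ± 0.12, adjusted p = 0.0253), called without adult replicate 2 but not without any other library (adjusted p at most 0.172). The 7 tested genes of proteins shed or engaged after P2X7 opens had a median log2 fold change of 0.06. The shedding proteases Adam10 and Adam17 had log2 fold changes of −0.20 ± 0.14 and 0.10 ± 0.13.

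Intracellular purine salvage and breakdown had 1 of 27 genes up and 1 down (median 0.00). Impdh1, an enzyme of guanine nucleotide synthesis, rose by 0.52 ± 0.13 (121 ± 14.8 to 174 ± 16.7 CPM, adjusted p = 0.0390), and Xdh, which makes uric acid, fell by 1.72 ± 0.43 (14.9 ± 5.94 to 4.54 ± 2.28 CPM, adjusted p = 0.0400). Impdh1 lost its call without any 1 library and Xdh without any 1 but adult replicate 2 (adjusted p at most 0.210 and 0.198). Peptidases related to Dpp4 by family or only by name had 1 of 6 up and 1 down. The cytosolic Dpp3, which shares the name but not the family, rose (0.50 ± 0.12, edgeR adjusted p = 0.0400). The lysosomal Prcp fell (−0.98 ± 0.23, edgeR adjusted p = 0.0323). Their highest adjusted p was 0.184 and 0.131 when 1 library was left out. Dpp3 kept its call only without adult replicate 3 and Prcp only without infant replicate 3.

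The list of other NAD ectoenzymes, ADP-ribosyltransferases and related genes had 0 of 7 called. At an unadjusted edgeR p under 0.05 there was 1, and DESeq2 called 1 and limma-voom 0. The 7 tested were Art4, Art5, Sarm1, Adprh, Adprhl2, Macrod1 and Oard1, several of them intracellular. Bst1, Art1, Art2a-ps and Art3 were not tested, so the list says little about surface enzymes. Adprh, which removes ADP-ribose from proteins, was at 89.9 ± 8.66 and 85.3 ± 9.86 CPM (log2 fold change −0.07 ± 0.14). The smallest p of the list was that of Sarm1, with 15, 35 and 21 counts in adult and 10, 5 and 2 in infant libraries. Its log2 fold change was −2.19 ± 0.64 (edgeR adjusted p = 0.0796). NAD synthesis and intracellular NAD-consuming enzymes had 0 of 22 called, with 4 at an unadjusted p under 0.05, 1 by DESeq2 and 0 by limma-voom. Their most abundant member Sirt7, a deacetylase, had a log2 fold change of −0.34 ± 0.11 (adjusted p = 0.134). The smallest p among them was that of Nmnat2, with 5, 3 and 1 counts in adult and 33, 10 and 22 in infant libraries. Its log2 fold change was 2.68 ± 0.70 (edgeR adjusted p = 0.0502). In the cAMP pathway behind the adenosine receptors, 1 of 20 tested genes was called (median 0.14). It was Adcy9, an adenylyl cyclase that fell, with 14, 18 and 18 counts in adult and 0, 4 and 2 in infant libraries (log2 fold change −3.06 ± 0.78, adjusted p = 0.0455, lost without any 1 library, at most 0.208). It passed the filter only through its adult counts, and the 6 infant counts do not fix the size of its change.

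Some markers of other cells differed between the ages. Regulatory T cells carry CD39 and CD73. Their 7 markers summed to 139 to 166 CPM in adult and 149 to 169 in infant libraries, and of these Gpr83 was called higher in the infants (log2 fold change 1.11 ± 0.19, edgeR adjusted p = 0.00436). Foxp3 itself was at 4.49 to 6.25 CPM in adult and 6.53 to 9.18 in infant libraries. The most abundant of the list, Tnfrsf18, was at 78.4 to 111 CPM in the adults and 65.0 to 71.6 in the infants (log2 fold change −0.55 ± 0.15, edgeR adjusted p = 0.0601), and Ctla4, with a log2 fold change of −0.52 ± 0.59, overlapped. The 6 natural killer markers summed to 17.7 to 34.9 CPM in adult and 9.21 to 10.6 in infant libraries, with Klrd1 called lower (log2 fold change −1.33 ± 0.31, edgeR adjusted p = 0.0255), while Ncr1, a defining gene of those cells, was at 0 in all 6 libraries. Among 7 thymocyte markers, whose sums overlapped, Ccr9 was called higher and Dntt lower (log2 fold changes 1.43 ± 0.21 and −1.88 ± 0.31, edgeR adjusted p = 0.00147 and 0.00363). The 8 markers of activated or memory T cells overlapped (125 to 175 and 145 to 159 CPM). The part of such cells in the levels of the 9 genes was not tested.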

How the data were processed

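RNA of 3 adult and 3 infant libraries was compared. Per the submitters' processing notes, the authors aligned reads with STAR 2.5.4 and counted them with featureCounts on mm10, and what they deposited are raw counts for each gene symbol. Per the labels' protocols, poly(A) RNA was amplified by PCR without molecular identifiers, so intervals of counting do not cover amplification. No annotation release, featureCounts version or rule for multiply matching reads is given in the sources used here. Replicates were distinct mice per the series text, and their counts differed by more than counting noise (5.07 to 13.0 as chi-square over degrees of freedom).

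The main test was the quasi-likelihood F test of edgeR 4.0.16 (R 4.3.3). filterByExpr (counts of at least 10, total 15) left 11681 genes, TMM factors lay between 0.963 and 1.07, and p-values were adjusted over these genes by Benjamini-Hochberg at 0.05. SE is the absolute log2 fold change over the square root of F. Fold changes are infant over adult. Totals of 3421253 to 4887371 counts and 3 mice per age limit precision. Exon lengths and positions came from GENCODE M21 (GRCm38, the assembly of mm10), which matched 49330 of 52997 symbols (93.1%). Promoter windows came from RefSeq (GRCm38.p6).

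The genes, lists and the rule for naming were chosen with earlier results of these data known. Named were the 9 genes, up to 3 called genes per list by smallest p or else the tested gene of highest level, and the 3 nearest patterns of the 3 genes with the largest fold change (those of Cd38 are not given). Other genes named, as markers or relatives, were chosen after their values were seen. Some genes that the rule names are left out of the text. Counts from 12 marker lists were summed per library. Of lists whose sums are not in the text, CD8 T cell markers summed to 31.3 to 36.5 CPM in adult and 32.0 to 41.8 in infant libraries, gamma-delta T cell 4.36 to 7.10 and 3.63 to 7.97, erythroid and platelet 4.91 to 8.24 and 4.35 to 9.84, stroma and endothelium 339.9 to 395 and 376 to 391, and thymocyte 101 to 115 and 101 to 115. Nearly all of the stroma and endothelium sum was Pecam1 (308 to 395 CPM). Likewise, nearly all of the CD8 T cell sum was Cd8b1 (30.7 to 40.1 CPM), while Cd8a was at 0 to 1.93 CPM. The fit was checked on simulated counts. Alternatives were other scalings, filters, a replicate block, thinning, DESeq2 1.42.0, limma-voom (limma 3.58.1) and leaving out each library.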

Additional observations from a re-analysis of the deposited data

How the results depend on the processing

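Fold changes of the 8 tested genes kept their direction under every alternative run. Over the scaling, filter, block, thinning and tool alternatives they moved by less than the spread between replicates, with Nt5e at −1.77 to −1.69, Art2b at −1.78 to −1.75, Dpp4 at 0.86 to 0.91 and P2rx7 at 0.91 to 1.10. Among the fits without 1 library, only Cd38 without adult replicate 2 (4.64) moved further. Cd38 gave no value with the stricter filter or after thinning, where it was not tested. Scaling shifted the median of all genes by at most 0.005 on the log2 scale.

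The count of 425 genes differing between the ages ran from 139 to 488 when 1 library was left out, with the highest count without adult replicate 2. The other 5 fits gave 185 and 208 (adult replicate 1 or 3 left out) and 176, 139 and 189 (infant replicate 1, 2 or 3 left out). With other settings it ran from 326 to 622 (DESeq2). The count of 10 other purine and NAD genes ran from 0 to 7 without 1 library. It was 0 without adult replicate 1 or infant replicate 2, with 20 and 18 at an unadjusted edgeR p under 0.05. With the replicate number as a block it was 6, with 1 higher and 5 lower, and 326 of all genes were called. The numbers were not taken as pairs because they are not said to mark a shared litter, day or batch. Libraries of the same number did not deviate together (correlations −0.092 to −0.011), and 0 of 6 were closest to their own number. With 3 libraries per age these correlations cannot exclude a pairing. Counts below about 3 per library cannot be told from 0. In adult replicate 2 the floor was higher. Its 13 counts of Entpd1 and 6 of Cd38 lay near the 10.3 and 7.21 that the density over untested genes would place there. Both limits leave Entpd1 and the adult level of Cd38 undetermined.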
